A study of Homo sapiens with 8 samples.

Results

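The genes described here encode the machinery of G2 phase and mitosis, namely the mitotic cyclins and their kinase, the mitotic kinases, the spindle checkpoint, the kinetochore, the spindle motors and the anaphase apparatus. They were 35 genes fixed by name, and their members were all probe sets that carried one of these names as their only gene symbol. The rule found 57 probe sets of the 22277 on the array, and all 35 genes were among the 11963 measured. A gene is represented by its brightest probe set (highest mean), and the other probe sets are described separately.

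Levels were measured on 8 Affymetrix arrays of established human ovarian cancer cell lines, which were CAOV-3, OVCAR-3, SKOV-3 and DOV-13. For each line 1 array held RNA of cells whose medium had received pI:pC, a synthetic double-stranded RNA, and 1 array RNA of untreated cells, so each condition had 4 arrays. All cells grew in the same serum-containing medium, the untreated cells got no other agent that the labels name, and the labels give neither the dose of an array nor its exposure time, and no genotype or clone. Each line was thus a single pair of arrays without a replicate, and a line's difference below is treated minus untreated on the log2 scale.

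A cell commits to mitosis when cyclin B and CDK1 form an active kinase, which CDC25 phosphatases switch on and the anaphase-promoting complex later switches off by destroying the cyclin. Most of the genes in this group are transcribed late in the cell cycle and are silent in resting cells, so their summed RNA in a culture follows the share of cells in G2 and M as well as the output of each cell. In RNA from a whole culture, fewer cells of a phase and less RNA per cell cannot be told apart. Their shared timing is known to depend on promoters with CCAAT boxes, bound by NF-Y, and a cell cycle genes homology region (CHR), bound by the MuvB core of the DREAM and B-MYB complexes.

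Because the members lay on 1 side together in CAOV-3, windows around the starts of 4 of them are shown, with and without these elements. Each window is from RefSeq (GRCh38.p14), holds 250 bases before to 50 after an annotated start, and is written in the direction of transcription. Capitals mark the CHR element TTTGAA and the CCAAT box CCAAT on either strand (TTCAAA and ATTGG on the opposite one). DLGAP5 lies at chr14:55191536-55191835 (- strand), CCNB2 at chr15:59104896-59105195 (+ strand), KIF20A at chr5:138178862-138179161 (+ strand) and MELK at chr9:36572645-36572944 (+ strand). The first 3 were among the members lowest after pI:pC in CAOV-3, and MELK was the member that differed least there.
DLGAP5: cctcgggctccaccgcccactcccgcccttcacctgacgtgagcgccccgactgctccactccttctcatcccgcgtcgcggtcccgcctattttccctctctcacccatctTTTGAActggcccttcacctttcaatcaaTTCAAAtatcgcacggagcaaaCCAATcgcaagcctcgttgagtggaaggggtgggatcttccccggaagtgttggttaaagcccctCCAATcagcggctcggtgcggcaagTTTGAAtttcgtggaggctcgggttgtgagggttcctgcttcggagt
CCNB2: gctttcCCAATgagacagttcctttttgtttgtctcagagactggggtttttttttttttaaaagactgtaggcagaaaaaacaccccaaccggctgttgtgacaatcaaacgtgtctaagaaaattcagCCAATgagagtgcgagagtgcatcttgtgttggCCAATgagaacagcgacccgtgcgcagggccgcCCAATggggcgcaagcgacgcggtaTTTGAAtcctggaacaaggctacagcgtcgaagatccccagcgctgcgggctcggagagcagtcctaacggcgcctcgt
KIF20A: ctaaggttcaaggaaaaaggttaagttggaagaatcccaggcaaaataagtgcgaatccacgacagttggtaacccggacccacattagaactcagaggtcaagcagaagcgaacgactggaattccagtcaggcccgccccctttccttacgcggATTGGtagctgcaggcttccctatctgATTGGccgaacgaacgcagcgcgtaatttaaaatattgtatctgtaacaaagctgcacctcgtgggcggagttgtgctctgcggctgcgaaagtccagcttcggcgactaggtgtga
MELK: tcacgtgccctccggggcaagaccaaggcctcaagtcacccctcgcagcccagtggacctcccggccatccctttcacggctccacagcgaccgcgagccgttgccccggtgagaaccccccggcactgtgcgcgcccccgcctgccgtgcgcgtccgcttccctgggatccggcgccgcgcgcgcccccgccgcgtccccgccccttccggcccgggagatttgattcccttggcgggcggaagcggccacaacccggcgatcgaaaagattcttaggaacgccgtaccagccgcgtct

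The DLGAP5 window holds 3 CHR elements and 2 CCAAT boxes, and that of CCNB2 holds 1 CHR element 29 bases before the start and 4 CCAAT boxes. The KIF20A window holds 2 CCAAT boxes and no TTTGAA, and the MELK window holds neither. The windows of CENPE and KIF2C, not shown, also hold neither, and these genes differed by -0.68 and -0.28 in CAOV-3. Of the 35 genes, 31 had a window in the RefSeq table. A CHR element was present in 21 of the 31 (67.7%), against 18.2% of the 27305 genes with a window and 15.6% of the measured genes. It began within 60 bases before the start in 15 members (48.4%), against 3.79% of all genes with a window and 3.21% of the measured genes. A CCAAT box was present in 26 members (83.9%), against 39.7% of all genes with a window and 44.2% of the measured genes. At least 2 were present in 18 members (58.1%), against 12.9% and 15.6%. A gene with several windows counts once for any of them, and a CHR element overlapped a CCAAT box in 1 member window. In the windows of HMMR and PTTG1, CCAAT boxes on opposite strands overlapped and were each counted. These are matches of letters, and TTTGAA on either strand was the only form of the CHR searched for. Whether a factor bound these motifs in these cells was not measured.

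**Figure D1:**
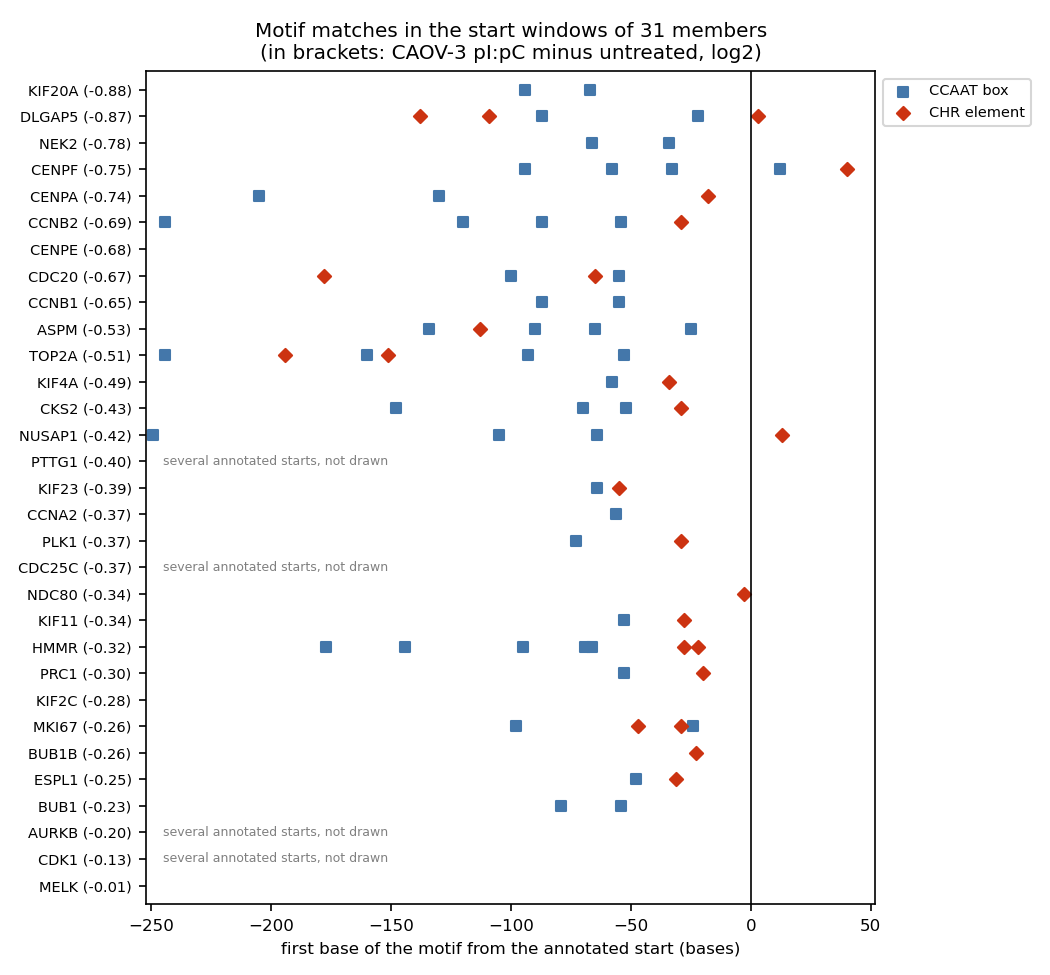
Position of CHR elements (red) and CCAAT boxes (blue) in bases from the annotated start. The 31 members with a RefSeq window are ordered by their CAOV-3 difference in log2 (in brackets). For CDK1, CDC25C, AURKB and PTTG1, which have several annotated starts, no positions are drawn. CHR elements begin within 60 bases before the start in 15 members, counting CDK1 and CDC25C. Of these 15, CENPA (-0.74) and CCNB2 (-0.69) had the largest differences in size. Most of the 15 differed by less in size than the median of all members (-0.39).

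In CAOV-3 all 35 members were lower on the treated array, while the other lines showed small differences of both signs. The median difference of the members was -0.39 in CAOV-3, against -0.02 for all genes. In SKOV-3 the members had 0.01 and all genes 0.02, in DOV-13 0.10 and 0.03, and in OVCAR-3 -0.05 and -0.01. Below 0 were 35 of 35 members in CAOV-3, where 54% of all genes were, 25 in OVCAR-3 (53.6%), 15 in SKOV-3 (44%) and 6 in DOV-13 (39.7%). A member was counted as lower or higher from a difference of 0.3 (1.23-fold), a limit set with earlier results known. In CAOV-3, 26 of the 35 were lower by that much and 0 higher, where 7.36% of all genes were lower and 7.22% higher. In SKOV-3 and OVCAR-3 no member reached it in either direction (all genes: 3.59% lower and 4.94% higher in SKOV-3, 4.16% and 3.43% in OVCAR-3). In DOV-13 only KIF23 was higher by that much and 0 members were lower (4.27% and 2.21% of all genes).

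**Figure D2:**
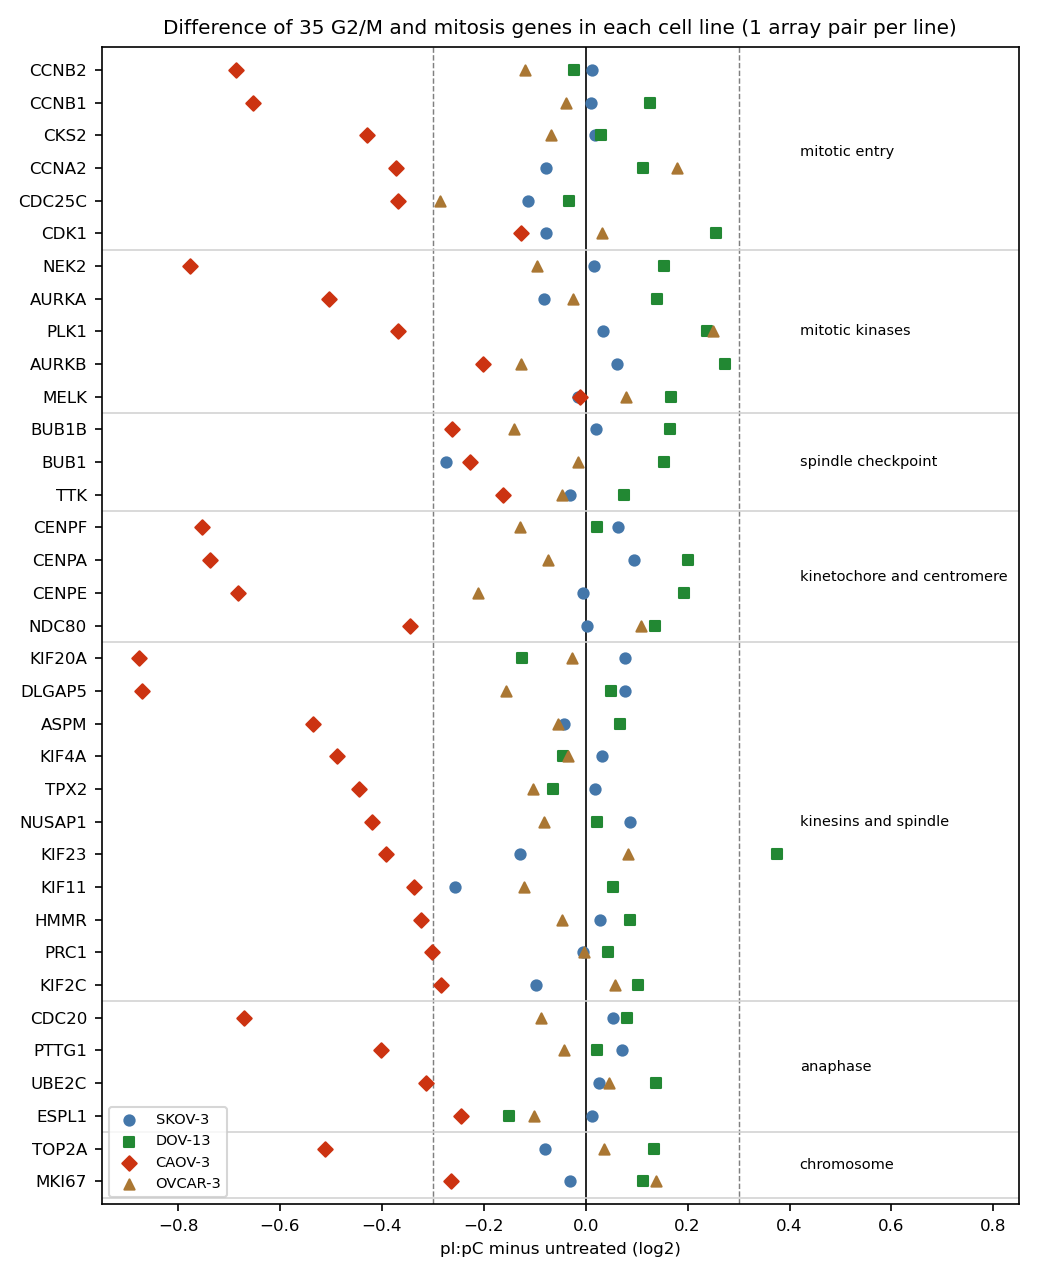
Treated minus untreated (log2) of each of the 35 members by role, with 1 point per cell line from a single array pair and dashed lines at a difference of 0.3 either way. The CAOV-3 points (red) lie left of 0 for every member, from -0.88 for KIF20A to -0.01 for MELK, and the other lines scatter around 0.

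Over the 4 lines, no member passed. Fitted in limma with a block for each line, treatment gave 0 of the 35 members and 0% of all genes at an adjusted p under 0.05. Among the members that p went down to 0.988. At an unadjusted p under 0.05 there was 1 member, CDC25C, and 3.74% of all genes. The median of the members' mean changes was -0.11, with 31 negative and 4 positive, and it was 0.015 without CAOV-3. Of all 11963 genes, 5536 had a negative and 6427 a positive mean change, with a median of 0.007. By its brightest probe set, CDC25C was the only member with 1 sign in all 4 lines, and a second one was higher in DOV-13. Of all 11963 genes, 541 were lower and 823 higher in all 4 lines.

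The difference between lines was tested for each line against the mean of the other 3, again over all genes with limma. With 1 pair per line, the line that stands alone is assumed to vary like the others. For CAOV-3, 0 of the 35 members passed at an adjusted p under 0.05 (smallest adjusted p = 0.114, for KIF20A), where 0.343% of all genes did. At an unadjusted p under 0.05 there were 22 members, all lower in CAOV-3, where 9.35% of all genes had such a p. For SKOV-3, DOV-13 and OVCAR-3 the adjusted test called 0 members and 0% of all genes. Unadjusted, it gave 0 members in SKOV-3 (7.56% of all genes), 1 in DOV-13 (2.32%) and 0 in OVCAR-3 (2.98%). CAOV-3 was singled out with earlier results known, so its 22 members describe this array pair and are no independent support.

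**Figure D3:**
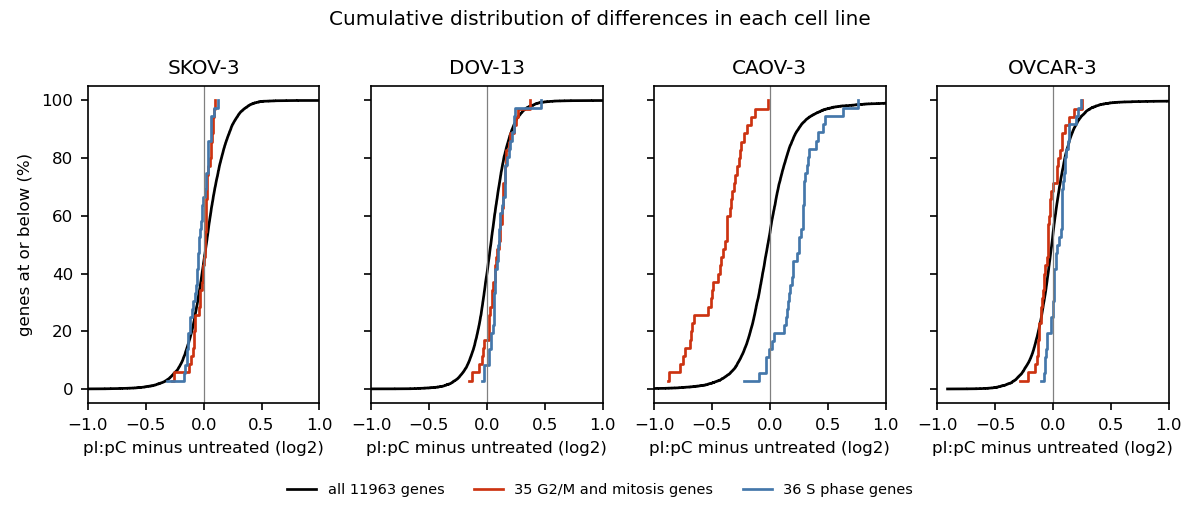
Percent of genes at or below each difference (treated minus untreated, log2) in each line, for all 11963 genes (black), the 35 members (red) and 36 S phase genes (blue). In CAOV-3 the members lie left of all genes (median -0.39) and the S phase genes right of them (0.25). In the other lines the medians lie closer together. Below 0 lie 71.4% of members, 25.0% of S phase genes and 53.6% of all genes in OVCAR-3. These shares are 17.1%, 8.33% and 39.7% in DOV-13, and 42.9%, 66.7% and 44% in SKOV-3.

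By role, the 4 kinetochore and centromere genes were furthest below 0 in CAOV-3, with a median difference of -0.71. The 6 mitotic entry genes had -0.40, the 11 kinesin and spindle genes -0.42, the 5 mitotic kinases -0.37, the 4 anaphase genes -0.36, the 2 chromosome genes -0.39 and the 3 spindle checkpoint genes -0.23. None of the checkpoint genes reached 0.3. Below, 4 values of a condition are log2 levels that begin with SKOV-3, followed by DOV-13, then CAOV-3, then OVCAR-3.

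Among the genes of mitotic entry, CCNB1 (cyclin B1, the activating partner of CDK1) stood at 10.96, 11.12, 10.28 and 10.75 untreated and at 10.97, 11.25, 9.63 and 10.71 after pI:pC. CAOV-3 had the lowest level in both conditions, and its treated array was 1.57-fold lower than its untreated one. The mean change over the lines was -0.14 ± 0.35 (SD, n = 4 lines), and 0.033 without CAOV-3. Cyclin B2, the product of CCNB2, followed it in CAOV-3 with a difference of -0.69 and lay within 0.12 of 0 in the other lines. CDK1, the mitotic kinase itself, differed little. It stood at 10.54, 10.90, 10.64 and 10.98 untreated and at 10.47, 11.15, 10.52 and 11.02 treated. Its difference in CAOV-3 was -0.13, the second smallest of the members there, its difference in DOV-13 was 0.26, and its mean change was 0.02 ± 0.17 (SD, n = 4 lines). The other bright CDK1 probe sets differed by only 0.09 and 0.07 in DOV-13.

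CDC25C, the phosphatase that activates CDK1, was lower on the treated array of every line by its brightest probe set. Its levels were 7.84, 8.15, 7.92 and 7.27 untreated and 7.73, 8.12, 7.55 and 6.99 treated, with differences of -0.11, -0.03, -0.37 and -0.29. The conditions overlapped across lines, and the mean change of -0.20 ± 0.15 (SD, n = 4 lines) did not pass in limma (adjusted p = 0.988). Without CAOV-3 it was -0.14. A dimmer CDC25C probe set, above the median probe set on 3 arrays, differed by 0.05 in DOV-13 and by -0.04 in OVCAR-3, so the shared sign depends on the probe set. CCNA2 (cyclin A, which acts in S and G2 phase) stood at 9.88, 10.16, 9.14 and 9.90 untreated and at 9.80, 10.27, 8.77 and 10.08 treated. It was thus lower in CAOV-3 and second highest among the members in OVCAR-3, at 0.18. Its other bright probe set differed by -0.60 in CAOV-3 and by -0.05 in OVCAR-3, so the sign in OVCAR-3 depends on the probe set. CKS2, a small binding partner of the cyclin-dependent kinases, differed by -0.43 in CAOV-3 and by at most 0.07 in size elsewhere.

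The mitotic kinases had the widest range of the roles in CAOV-3. NEK2, a kinase of centrosome separation, stood at 8.70, 9.99, 9.59 and 9.04 untreated and at 8.71, 10.14, 8.82 and 8.94 treated. Only the CAOV-3 pair was far apart, 1.71-fold lower after pI:pC. MELK, a kinase of proliferating cells, stood at 11.19, 10.20, 10.54 and 10.15 untreated and at 11.17, 10.37, 10.52 and 10.23 treated, with -0.01 in CAOV-3. Its departure from the list median in that line was 0.38, the largest on the upper side.

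PLK1, which drives mitotic entry and spindle assembly, stood at 7.73, 7.57, 6.47 and 6.28 untreated and at 7.76, 7.81, 6.10 and 6.53 treated. It was lower in CAOV-3 (-0.37), higher in DOV-13 (0.24) and in OVCAR-3 the highest of all members (0.25), and its mean change was 0.04 ± 0.29 (SD, n = 4 lines). PLK1 was also the only member under the median gene of an array, on the 4 arrays of CAOV-3 and OVCAR-3. AURKB, the kinase of the chromosomal passenger complex, stood at 7.998, 8.36, 7.85 and 7.44 untreated and at 8.06, 8.63, 7.65 and 7.32 treated. Its difference of 0.27 in DOV-13 was second among the members there. AURKA, the kinase of the spindle poles, differed by -0.50 in CAOV-3 and by 0.14 in DOV-13.

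The spindle checkpoint genes hold back anaphase until the chromosomes are attached. BUB1, a checkpoint kinase, stood at 7.53, 9.47, 9.30 and 8.46 untreated and at 7.25, 9.62, 9.07 and 8.44 treated. SKOV-3 had by far the lowest level in both conditions, and BUB1 was the member with the lowest difference in SKOV-3 (-0.27). BUB1B, which encodes BUBR1, stood at 10.81, 9.46, 9.10 and 10.52 untreated and at 10.83, 9.63, 8.84 and 10.38 treated. TTK, the kinase MPS1 that starts the checkpoint signal, stood at 9.32, 9.71, 9.36 and 9.01 untreated and at 9.29, 9.78, 9.20 and 8.96 treated. Its CAOV-3 difference of -0.16 was the third smallest in size, and the SD of its 4 differences (0.10) exceeded the size of their mean (-0.04).

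At the kinetochore, CENPA, the histone variant that marks centromeres, stood at 8.17, 8.03, 7.88 and 7.27 untreated and at 8.27, 8.23, 7.14 and 7.20 treated. CAOV-3 was 1.67-fold lower after treatment, and SKOV-3 and DOV-13 lay slightly above their untreated arrays. A further probe set that the annotation shares between CENPA and SLC35F6, and that is therefore no member, differed by -0.81 in CAOV-3 and by 0.00 to 0.14 in the other lines. CENPE, the kinetochore motor, stood at 7.90, 8.72, 8.60 and 8.64 untreated and at 7.89, 8.92, 7.92 and 8.43 treated. It was the second lowest member in OVCAR-3, with -0.21. CENPF, a kinetochore protein that accumulates in G2, differed by -0.75 in CAOV-3, and NDC80, which binds spindle microtubules, by -0.34.

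The spindle motors and their partners held the largest differences of the group. KIF20A, a kinesin of cytokinesis, stood at 9.58, 9.95, 9.59 and 9.10 untreated and at 9.65, 9.83, 8.71 and 9.08 treated, so that its treated CAOV-3 array was the lowest of the 8 and 1.84-fold under the untreated one. DLGAP5, which stabilises spindle fibres at the kinetochore, stood at 9.67, 10.31, 9.15 and 10.33 untreated and at 9.74, 10.36, 8.28 and 10.17 treated, 1.83-fold lower in CAOV-3. In the test of CAOV-3 against the other lines, the contrast was -0.85 ± 0.14 (SE) for KIF20A and -0.86 ± 0.15 (SE) for DLGAP5, which did not pass in limma (adjusted p = 0.114 and 0.124).

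KIF23, the motor of the central spindle, stood at 9.43, 8.93, 9.79 and 9.27 untreated and at 9.30, 9.30, 9.40 and 9.36 treated. The untreated spread over the lines was nearly absent after treatment, with the lowest line higher by 0.38 and the highest lower by 0.39. KIF11, the kinesin that separates the spindle poles, stood at 9.30, 10.23, 9.87 and 9.61 untreated and at 9.05, 10.28, 9.53 and 9.49 treated, and was the second lowest member in SKOV-3. TPX2, which activates AURKA on the spindle, stood at 10.69, 10.94, 10.33 and 10.35 untreated and at 10.70, 10.88, 9.88 and 10.25 treated. NUSAP1, a spindle microtubule bundler, stood at 11.05, 10.43, 11.57 and 11.13 untreated and at 11.13, 10.45, 11.15 and 11.05 treated. Both were lower in CAOV-3 by over 0.4 and moved by at most 0.10 in the other lines. The other bright NUSAP1 probe set differed by -0.44 in CAOV-3, -0.14 in SKOV-3, 0.13 in DOV-13 and 0.17 in OVCAR-3. The signs of NUSAP1 in SKOV-3 and OVCAR-3 thus depend on the probe set.

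PRC1, which bundles the microtubules of the central spindle, had the smallest differences outside CAOV-3, at most 0.04 in size. It stood at 10.44, 10.19, 10.71 and 8.91 untreated and at 10.44, 10.23, 10.41 and 8.91 treated. The remaining spindle genes ASPM, KIF4A, HMMR and KIF2C differed in CAOV-3 by -0.53, -0.49, -0.32 and -0.28, and in the other lines by at most 0.10 in size. The other bright probe set of KIF2C differed by -0.16 in SKOV-3, and that of HMMR by -0.11 in OVCAR-3.

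In the anaphase group, CDC20, the activator of the anaphase-promoting complex, had the largest difference in CAOV-3 (-0.67), followed by PTTG1 (securin, -0.40) and the ubiquitin-conjugating enzyme gene UBE2C (-0.31). ESPL1, which encodes separase, the protease that cuts cohesin, stood at 9.28, 9.70, 8.99 and 9.15 untreated and at 9.29, 9.55, 8.74 and 9.05 treated. It was the lowest member in DOV-13 (-0.15), followed by KIF20A (-0.12) and TPX2 (-0.06), in the line where 29 of the 35 were higher. The other bright ESPL1 probe set differed by -0.01 there, so its rank rests on the probe set.

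Of the chromosome genes, TOP2A, the topoisomerase that untangles sister chromatids, stood at 11.59, 11.23, 10.77 and 10.33 untreated and at 11.51, 11.36, 10.26 and 10.37 treated. MKI67, the gene of the proliferation antigen Ki-67, stood at 10.03, 9.52, 9.00 and 9.14 untreated and at 10.00, 9.63, 8.74 and 9.28 treated. The mean changes were -0.11 ± 0.29 for TOP2A and -0.01 ± 0.18 for MKI67 (SD, n = 4 lines), and without CAOV-3 they were 0.030 and 0.073. In OVCAR-3 MKI67 differed by 0.14, and its other bright probe sets went down to -0.11. TOP2A differed by 0.04 there and its other bright probe set by -0.12. For both genes the treated CAOV-3 array was the lowest of the 8. The same held for 18 of the 35 members and for 2404 of all 11963 genes.

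**Figure D4:**
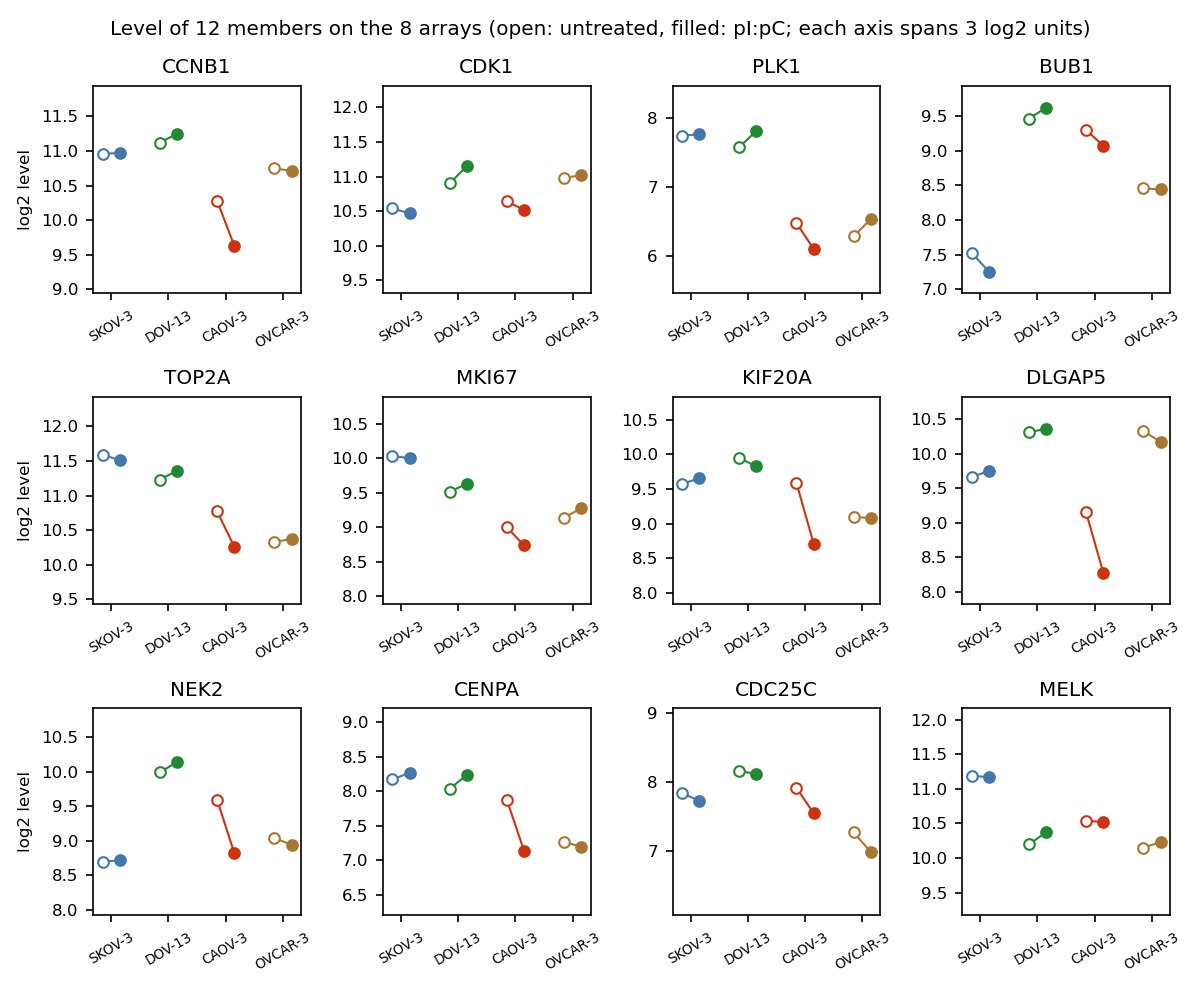
Log2 level of 12 members on the 8 arrays, with an open circle for the untreated and a filled circle for the treated array of each line. Every vertical axis spans 3 log2 units, and in CAOV-3 the lines slope down steeply for KIF20A, DLGAP5, NEK2 and CENPA and hardly at all for MELK and CDK1.

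The order of the members in CAOV-3 was not that of the other lines. Across the 35 genes, the differences in CAOV-3 correlated with those in OVCAR-3 at a Pearson r of 0.356, with DOV-13 at 0.249 and with SKOV-3 at -0.398. These are descriptions over genes of the same arrays. With the untreated level in CAOV-3, which enters the difference, r was 0.0355. Members whose window holds a CHR element had a median of -0.39 in CAOV-3 (21 genes) and those without one also -0.39 (10 genes). With 2 or more CCAAT boxes the median was -0.52 (18 genes), and with fewer it was -0.34 (13 genes), with ranges that overlapped almost wholly (-0.88 to -0.13 and -0.68 to -0.01).

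All probe sets of the members gave the same picture in CAOV-3, where 55 of the 57 were lower. Of the 57, 47 were at or above the median probe set on all 8 arrays, 6 on none and 4 on some. All 47 bright ones were lower in CAOV-3, and the 2 that were higher, both of BUB1, were among the 6 dim ones. For 13 genes there were several probe sets. Their signs differed for 1 of the 13 in CAOV-3 (BUB1) and for 3 in DOV-13, but for 8 in OVCAR-3 and 7 in SKOV-3. A second BUB1 probe set of intermediate level differed by -0.78 in SKOV-3, where the one used differed by -0.27. The other bright NEK2 probe set differed by -0.38, 0.11, -0.95 and -0.34, so the size of NEK2 in SKOV-3 and OVCAR-3 depends on the probe set.

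The lines differed in the level of most members. In limma's F-test over the lines, which takes a line's treated and untreated array together and has treatment as a covariate, 33 of 35 members had an adjusted p under 0.05, as did 69.7% of all genes. The exceptions were KIF23 and NDC80 (adjusted p = 0.147 and 0.0506). The spread in this test is that between a line's treated and untreated array beyond the shared treatment effect. DOV-13 stood highest. Its level was above the other 3 lines for 25 members (23.9% of all genes) and below for 3 (22.3%). Without its treated array the 25 became 11, and the 3 became 1 without its untreated array and 6 without treated CAOV-3. Its untreated array was the highest of 4 for 18 members (23.7% of all genes). CAOV-3 was below the others for 15 members (27.9%) and above for 6 (25.9%), levels that include its lower treated array. The 15 became 11 without that array and 21 without the untreated one, and the 6 became 9 without the treated one. OVCAR-3 was below for 12 (29.1%) and above for 5 (23.9%). The 12 became 19 without treated CAOV-3. The 5 became 1 without treated OVCAR-3, 2 without untreated OVCAR-3, 3 without treated SKOV-3 and 8 without untreated CAOV-3. SKOV-3 was above for 10 (24.5%) and below for 9 (23.4%). The 10 became 7 without its treated array and 15 without untreated CAOV-3. The 9 became 5 without the untreated and 6 without the treated array of SKOV-3. With 1 array left out the F-test called 31 to 35 members.

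The widest untreated ranges were 1.94 for BUB1 (lowest in SKOV-3), 1.80 for PRC1 (lowest in OVCAR-3) and 1.71 for BUB1B (lowest in CAOV-3). BUB1 and BUB1B, which encode related checkpoint proteins, differed in the place of SKOV-3, the lowest line for BUB1 and the highest for BUB1B. NDC80 and CDK1 were among the 3 narrowest, with ranges of 0.39 and 0.44. Untreated CAOV-3 lay near the middle for the members as a whole, with a median of 0.01 around each gene's mean over the lines, whereas DOV-13 had 0.26, OVCAR-3 -0.22 and SKOV-3 0.04.

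**Figure D5:**
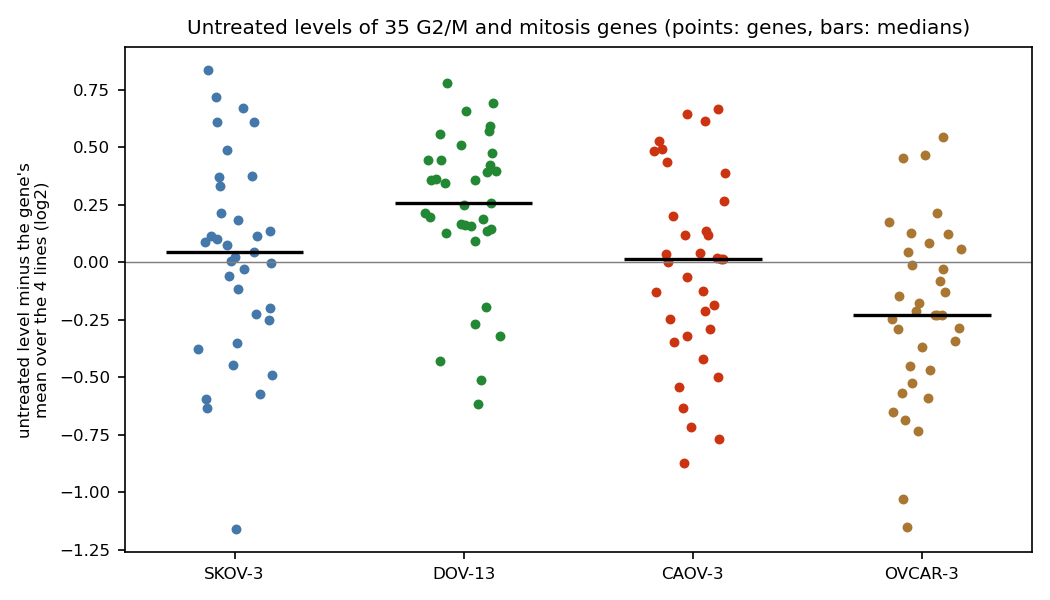
Untreated log2 level of each of the 35 members minus that gene's mean over the 4 untreated arrays, by cell line, with black bars at the medians. DOV-13 sits highest (median 0.26) and OVCAR-3 lowest (-0.22), with wide overlap between the lines.

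Other genes of the pathway, from lists drawn up with earlier results known, were set beside the members. No gene of these lists passed over the 4 lines (adjusted p of at least 0.988 in limma). Of 48 further G2/M genes measured, 46 were lower in CAOV-3 (54% of all genes) and 21 by at least 0.3 (7.36%), with a median of -0.28. In SKOV-3 32 of the 48 were lower (44% of all genes), in DOV-13 4 (39.7%) and in OVCAR-3 20 (53.6%). The lowest in CAOV-3 was PIMREG (-0.82), and over the lines the largest mean changes in size were those of DEPDC1 (-0.21 ± 0.29) and the kinesin gene KIF18A (-0.19 ± 0.12, SD, n = 4 lines). KIF18A was lower in all 4.

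The regulators above these genes went both ways in CAOV-3. FOXM1, the transcription factor of G2 genes, had -0.23 in CAOV-3 and at most 0.02 in size elsewhere, and MYBL2 (B-MYB) had -0.09. Among 14 measured genes of the DREAM, MuvB and NF-Y complexes and their partners, 7 were lower in CAOV-3 (54% of all genes), with a median of -0.02. By at least 0.3, 2 were lower there (7.36% of all genes) and 2 higher (7.22%), LIN37 being highest at 0.35. In SKOV-3 2 were lower by that much (3.59% of all genes), down to -0.72 for RBL1. In OVCAR-3 2 were (4.16%), down to -0.36 for NFYC, and in DOV-13 0 (2.21%). RBL2 (p130), a pocket protein of DREAM, was lower in all 4 lines, with -0.49 in CAOV-3 and -0.32 in OVCAR-3. RBL2 and E2F5 had the largest mean changes in size (-0.24 ± 0.20 and -0.14 ± 0.17, SD, n = 4 lines). Among 11 inhibitors of CDK1 and genes of G2 arrest none differed by 0.3 in any line. By line, 2.21% to 7.36% of all genes were lower by that much and 3.43% to 7.22% higher. CDKN1A (p21) had 0.04 and WEE1, the kinase that inhibits CDK1, -0.08 in CAOV-3, and CDKN1A and PKMYT1 had the largest mean changes in size of that list (-0.12 ± 0.12 and 0.06 ± 0.06). The 10 measured subunits and partners of the anaphase-promoting complex had a median of 0.00 in CAOV-3, with UBE2S, which extends its ubiquitin chains, at -0.50. UBE2S and the subunit gene CDC16 had the largest mean changes there (-0.14 ± 0.26 and -0.09 ± 0.05).

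S phase genes lay on the other side in CAOV-3. Of 36 measured, 31 were higher (46.0% of all genes) and 5 lower (54%), with a median of 0.25. By at least 0.3, 10 were higher (7.22% of all genes) and 0 lower (7.36%). The origin recognition gene ORC1 had 0.76 and the flap endonuclease gene FEN1 0.46 there, and TK1, a thymidine kinase, was the lowest at -0.23. Over the lines, the mean changes were 0.33 ± 0.35 for ORC1 and 0.16 ± 0.21 for FEN1 (SD, n = 4 lines). In DOV-13 members and S phase genes had the same median, 0.10, and the S phase median was -0.04 for SKOV-3 and 0.05 for OVCAR-3.

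Array quality and cell identity were checked beside these results. The median of all probe sets lay between 6.19 and 6.30 on the 8 arrays. The 3' minus 5' probe sets of ACTB, a sign of RNA integrity, stood at 0.80 in untreated and 0.94 in treated CAOV-3. They went from 0.63 to 0.67 in SKOV-3, from 0.58 to 0.64 in DOV-13 and from 1.32 to 1.27 in OVCAR-3, and those of GAPDH were 0.12 and 0.11 in the CAOV-3 pair. The part of RNA integrity in the lower CAOV-3 values was not tested.

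Keratins 8 and 18 and PAX8, a factor of Mullerian epithelium, were above the median gene in all untreated lines, whereas CDH1 was under it in SKOV-3 (3.74) and DOV-13 (3.58). Of 12 ovarian carcinoma and epithelial markers 6, 5, 9 and 11 were at or above the median gene, and of 9 mesenchymal markers 7, 6, 4 and 3, in the usual order of lines. Of 8 measured leukocyte markers only CD14 in CAOV-3 was above it (7.06 untreated, with a difference of -0.91), and of 6 endothelial markers none. PTPRC, the defining leukocyte marker, lay between 4.12 and 4.29 in all untreated lines. In CAOV-3 the median differences of the epithelial, mesenchymal, leukocyte and endothelial markers were -0.11, -0.09, -0.08 and -0.08. Lower there were 10 of 12, 7 of 9, 7 of 8 and 5 of 6 of them, where 54% of all genes were. Among them were SNAI2 (-1.10), KRT7 (-0.37), KRT8 (-0.36), KRT19 (-0.34) and VIM (-0.30), named after their values were seen. Of the 12 epithelial markers 5 had an unadjusted p under 0.05 in limma for CAOV-3 against the other lines, where 9.35% of all genes did, and 0 passed after adjustment. The part of these shifts in the lower values of the mitotic genes was not tested. The largest mean changes in size were those of MUC16 and EPCAM (0.24 and 0.16), SNAI2 and ZEB1 (-0.34 and -0.17), CD14 and MS4A1 (-0.33 and -0.16), and ROBO4 and PECAM1 (0.23 and 0.08).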

How the data were processed

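The authors deposited log2 expression levels, 1 per probe set. The submitters' processing notes name RMA, whose version is not given in the sources used here. RMA compresses differences of dim probe sets, and precision is limited by how few arrays there are. Names come from the platform annotation: 19064 carry 1 symbol, 1043 several and 2170 none or are array controls. Each of 11963 genes took its probe set with the highest mean.

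All tests were limma's (3.58.1, in R 4.3.3) over all genes at once, two-sided, with Benjamini-Hochberg adjustment and a threshold of 0.05. Treatment was fitted with the cell line as a block (3 residual and 4.41 prior degrees of freedom). The change of 1 line against the other 3 was fitted on the 4 differences (2 residual degrees of freedom), and levels between lines with treatment as a covariate (3). The line pairs the arrays: arrays of 1 line correlated at 0.992 to 0.997, those of different lines at 0.897 to 0.947, and deviations from the condition means at 0.945 to 0.968 within every pair. Nothing says that arrays came from separate cultures. The p-values of treatment and of 1 line against the others thus measure the spread of the differences between lines. Those of the level test measure the spread between a line's treated and untreated array beyond the shared treatment effect. The scripts were tested on simulated data.

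The members, the lists, the limit of 0.3 and the alternatives were chosen with earlier results of these data known. Values on every array are given for the 3 lowest and 3 highest members in each line, those with 1 sign in all lines, the 3 with the widest untreated range, and CCNB1, CDK1, PLK1, BUB1, TOP2A and MKI67. From each other list the 2 largest mean changes in size are named, besides FOXM1, MYBL2, CDKN1A and WEE1. The remaining members are given by role, and other genes were named after their values were seen.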

Additional observations from a re-analysis of the deposited data

Results flagged for a closer look

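Among 4 lines, a value was set apart when its gap to the nearest other line was large against the whole range (Dixon's 95% limit, which chance exceeds in about 1 of 20 groups). Of the 35 members, 2 had a CAOV-3 difference set apart in this way, KIF4A at -0.488 and PRC1 at -0.302 on the log2 scale. The levels set apart were those of untreated SKOV-3 for CENPE, the lowest at 7.90, and of treated DOV-13 for NEK2, the highest at 10.1. Treated DOV-13 was also set apart for NUSAP1, the lowest at 10.5, and treated OVCAR-3 for PRC1, the lowest at 8.91. These are 6 of the groups examined, which were 35 sets of differences, 35 of untreated and 35 of treated levels, besides the list median.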

How the results depend on the processing

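Alternatives were another choice of probe set (the mean, or the most variable), renewed quantile normalization, median centring, a filter on genes under the median level, eBayes with trend and robust, the fit with no replicate block, and each line left out. Leaving lines out of the contrast of 1 line, and single arrays out of the level test, was chosen after seeing the data. Under each of these limma called 0 members for treatment (0 with no replicate block, so the unpaired fit changed no call). For CAOV-3 against the other lines it called 0 under the probe set, normalization, centring, filter and eBayes alternatives and with each of the other lines left out. Of all genes, the latter test called 41, 9 with the level filter, 0 with trend and robust, 16 without SKOV-3, 67 without DOV-13 and 51 without OVCAR-3. Its count of 22 members at an unadjusted p stayed between 18 and 25. With a difference of 0.5 in place of 0.3, 12 members were lower in CAOV-3. At 0.2 there were 2 in SKOV-3 and 2 in OVCAR-3, and with the most variable probe set 3 and 1. The shares of all genes under these alternatives are not given, so these counts are not set against a background. The counts of members above or below the other lines in level moved most with single arrays left out in DOV-13 and OVCAR-3 (25 to 11 above, and 5 to 1 above). Centring left 10 members below 0 in DOV-13. The median of mean changes lay between -0.16 and 0.015 with a line left out, the latter without CAOV-3. With a line left out the mean change of CCNB1 lay between -0.23 and 0.033, of CDK1 between -0.058 and 0.070, of PLK1 between -0.032 and 0.17, of TOP2A between -0.19 and 0.030 and of MKI67 between -0.061 and 0.073. CDK1 turned to -0.011 with the mean of its probe sets. The cause of these changes was not tested. With 1 array pair per line no culture or array error is known.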
